A study of Mus musculus with 16 samples.

Results

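The variable (V), joining (J) and constant gene segments of the mouse T cell receptor alpha chain were followed through RNA sequencing of sorted double-positive (DP) thymocytes. Members were all rows of the gene count files whose symbol began with Trav or Traj, plus Trac. They came to 189 of 55754 gene rows, namely 128 Trav segments, 60 Traj segments and Trac. By the GENCODE annotation of mm10, 108 Trav and 51 Traj members were functional genes, and 20 Trav and 9 Traj were pseudogenes.

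The libraries fell into 5 groups of mice, which were old WT (4 libraries), young METTL3 KO (3), young WT (3), METTL3 KO with no age stated (3) and WT with no age stated (3). METTL3 is the catalytic subunit of the enzyme that writes N6-methyladenosine on RNA. Every group was labelled as thymus, and the study's design text describes the sorting of DP cells. The sources used here give no strain, sex, age in weeks, KO allele or Cre driver. They do not say whether replicates were separate animals, so each p-value reflects the spread among these libraries, which may be technical.

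DP thymocytes are the stage at which the alpha chain gene is assembled. RAG recombinase joins 1 V to 1 J segment, beginning with the J segments nearest to the V cluster, and a cell that fails selection can replace the first join with one that uses a V further upstream and a J further downstream. How long a DP cell survives is known in the mouse to limit how far along the J cluster this travels. The joined exon is spliced to the constant exons of Trac, and unrearranged segments are transcribed too. Counts on a segment therefore add both kinds of RNA, and they do not count rearrangements.

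All members lie on the + strand of chromosome 14, with Trav at 52427928 to 53977678, Traj at 54155005 to 54218842 and Trac at 54220521 to 54224206. Each class was split into 3 sections of its order. For V, proximal means near the J cluster: the distal section held 43 segments (Trav1 to Trav8d-2), the middle 42 (Trav16d-dv11 to Trav7-3) and the proximal 43 (Trav6-4 to Trav23). For J, proximal means near the V cluster and distal near Trac, with 20 segments each (Traj61 to Traj42, Traj41 to Traj22 and Traj21 to Traj1). Joining in DP cells starts with the proximal segments of both clusters.

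The J segments on which the results turn are shown from 5′ to 3′ as the GENCODE M21 transcripts give them, on the + strand of mm10. Capitals mark TTTGG or TTCGG, then any 4 bases, then GG, a motif searched on the coding strand only, which encodes the phenylalanine-glycine motif shared by J regions. It was found in 43 of 60 Traj segments (71.7%), in 42 of 51 functional ones (82.4%) and in 1 of 9 pseudogenes (11.1%). Traj58 and Traj49 belong to the proximal section and had their highest shares in METTL3 KO libraries without an age. Traj16 is a distal segment whose level there overlapped that of WT. Traj9, Traj7, Traj6, Traj3 and Traj2 are distal segments that fell, and Traj3 lacks the motif.
Traj58 (chr14:54157280-54157342): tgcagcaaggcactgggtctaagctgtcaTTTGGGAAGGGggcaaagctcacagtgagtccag
Traj49 (chr14:54168686-54168747): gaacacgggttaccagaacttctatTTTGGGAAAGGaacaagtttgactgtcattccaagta
Traj16 (chr14:54203134-54203194): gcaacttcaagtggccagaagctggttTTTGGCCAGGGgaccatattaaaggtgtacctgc
Traj9 (chr14:54209393-54209450): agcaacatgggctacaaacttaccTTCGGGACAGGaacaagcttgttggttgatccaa
Traj7 (chr14:54211470-54211528): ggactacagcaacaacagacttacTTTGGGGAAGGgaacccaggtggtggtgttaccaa
Traj6 (chr14:54212688-54212749): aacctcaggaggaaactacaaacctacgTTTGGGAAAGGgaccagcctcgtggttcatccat
Traj3 (chr14:54217292-54217357): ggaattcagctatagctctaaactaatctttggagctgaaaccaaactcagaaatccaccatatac
Traj2 (chr14:54217836-54217901): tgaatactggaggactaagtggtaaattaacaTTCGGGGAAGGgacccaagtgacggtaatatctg

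Gene counts per library were 9781368 to 10307780 in the libraries with an age, 10575795 to 13740694 in METTL3 KO without an age and 15927134 to 16167074 in WT without an age. Counts outside genes were 11.85% to 15.03% of entries in METTL3 KO without an age and 7.23% to 7.60% in WT without an age, and whether this bears on the segments was not tested. Mettl3 itself stood at 62.1 to 64.5 CPM (counts scaled to library size, with TMM factors) in libraries labelled young METTL3 KO and 59.5 to 66.0 CPM in young WT, so the counts do not separate these labels. It stood at 27.0 to 38.6 CPM in METTL3 KO without an age and 45.1 to 54.5 CPM in WT without an age (log2 fold change -0.58 ± 0.18 SE, edgeR quasi-likelihood adjusted p = 0.0189), a call that was lost with library size alone as the scaling (-0.48). Old WT replicate 3 stood apart in other cell types: its summed B cell markers reached 2101 CPM, against 487 to 998 in the other old WT libraries and 439 to 495 in young WT. Young WT replicate 1 stood apart within the V cluster, as described below.

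In the 3 young WT libraries, Trav counts summed to 2024, 1969 and 1869, Traj to 888, 980 and 894, and Trac to 3451, 3325 and 3428. V use was spread widely. Trav14-1 led with 4.13% ± 0.27 of Trav counts (SD, n = 3), followed by Trav13-1 at 3.87% ± 0.58 and Trav16 at 3.85% ± 0.58, and the top 10 together held 32.9%. The proximal section of V held 68.1% to 70.3% of Trav counts in every young WT library. J counts leaned the other way, towards Trac: Traj2, Traj1 and Traj3 held 7.75% ± 2.05, 7.63% ± 1.35 and 7.59% ± 0.79 of Traj counts. Traj1 is annotated as a pseudogene of 29 bases, and per kilobase it ranked the first of all J segments over the 16 libraries.

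From the sixth to the sixtieth J segment, share followed order closely in young WT (Spearman rho 0.963 over 55 segments, a description across segments of the same libraries). The last 5 segments held 30.8% ± 2.71 of Traj counts and the first 5 held 9.45% ± 2.69, and most other proximal segments stood near 0. The same shape stood in young METTL3 KO (rho 0.965), old WT (0.903) and WT without an age (0.913). In METTL3 KO without an age rho was 0.359, the first 5 segments held 31.7% ± 7.66 and the last 5 held 18.3% ± 6.10.

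**Figure D1:**
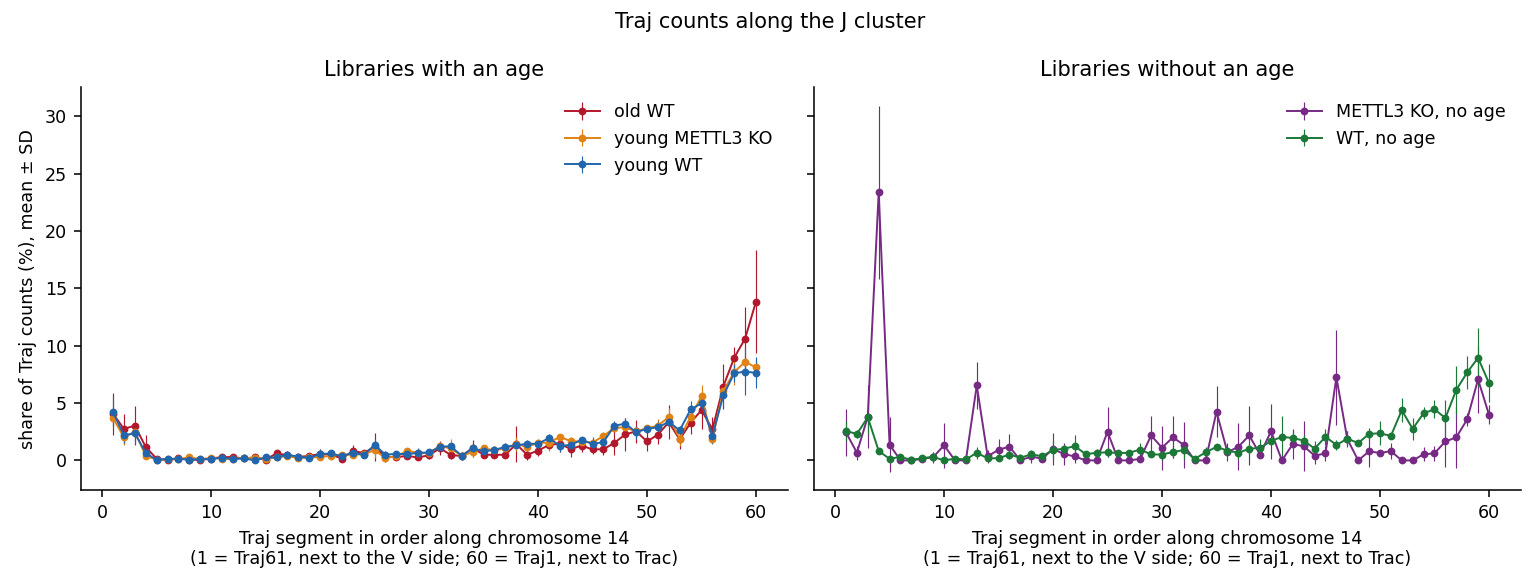
Share of Traj counts (%, y axis; mean ± SD) for each of the 60 Traj segments in order along chromosome 14 (x axis), in libraries with an age (left; 4 old WT, 3 young METTL3 KO, 3 young WT) and without (right; 3 METTL3 KO, 3 WT). Curves climb towards Traj1 in 4 groups, while METTL3 KO without an age peaks at Traj58 with 23.4% of Traj counts.

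In METTL3 KO without an age, V and J counts were low beside Trac, and the J counts that remained lay further from Trac. Trac had 7742, 7042 and 9397 counts in METTL3 KO and 7801, 7642 and 8487 in WT, or 655 ± 48.8 CPM against 516 ± 33.7 (SD, n = 3 each). The libraries did not overlap, but the difference missed the threshold of 0.05 (log2 fold change 0.34 ± 0.15 SE, edgeR quasi-likelihood adjusted p = 0.0666). It passed with library size alone as the scaling (0.44, adjusted p = 0.0217) and with a filter of 1 CPM in 3 libraries (0.38, adjusted p = 0.0437). Trac is shared by all alpha transcripts.

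Traj counts were 169, 241 and 193 in METTL3 KO and 842, 830 and 1040 in WT. Per 1000 Trac counts this was 25.5 ± 7.56 in METTL3 KO against 113 ± 8.24 in WT, 4.43-fold lower. Trav counts were 785, 925 and 861 in METTL3 KO and 2641, 2320 and 2680 in WT, or 108 ± 20.7 against 319 ± 17.8 per 1000 Trac counts, 2.95-fold lower. Neither ratio overlapped between the groups. At least 1 count was seen on 28, 37 and 25 of the 60 Traj segments in METTL3 KO and on 55, 56 and 56 in WT, in libraries with fewer counts in METTL3 KO. In bulk RNA, fewer cells with these transcripts and less of the RNA per cell cannot be told apart.

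**Figure D2:**
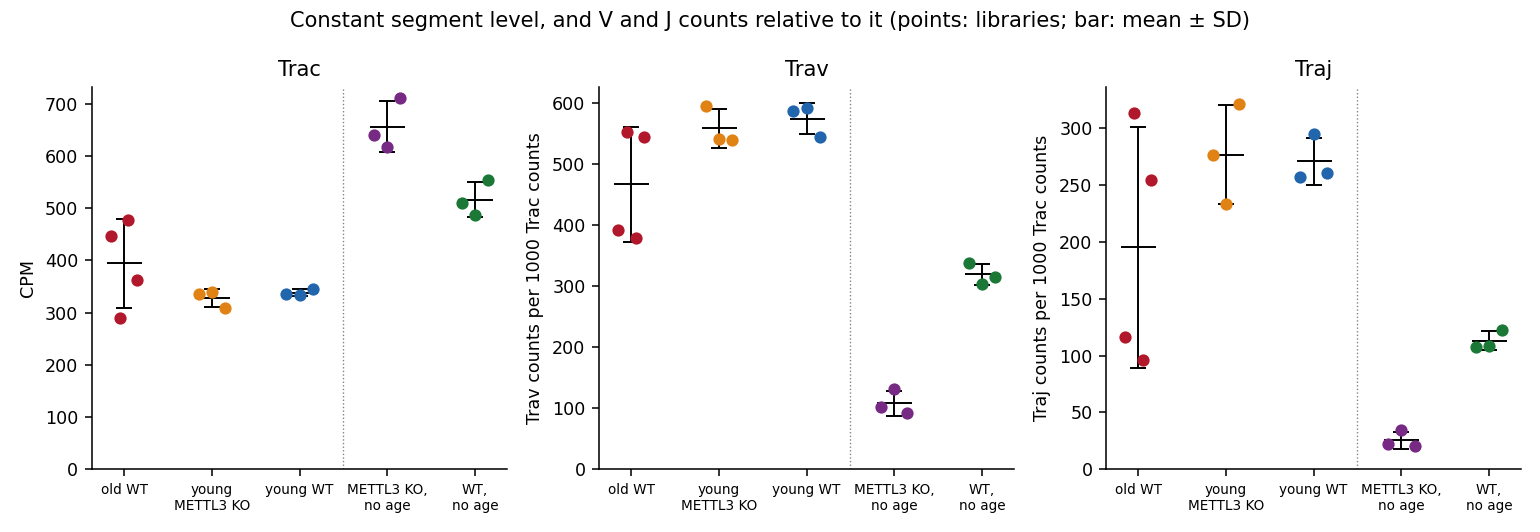
Trac level (CPM, left) and Trav (middle) and Traj (right) counts per 1000 Trac counts, by group. Points are libraries and bars are mean ± SD; METTL3 KO without an age lies at 91.6 to 131 Trav and 20.5 to 34.2 Traj counts per 1000 Trac counts, below the 3 WT libraries without an age, and of the 4 old WT libraries, 2 lie below every young WT library for Trav and 3 for Traj.

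Of the 189 members, 79 passed the filter on low counts in this comparison and 110 were not tested. The test called 46 members, 2 higher and 44 lower, against 53.9% of all genes tested called, 29.9% higher and 24% lower. A member that passed the filter through WT alone had to be lower, and one that passed through METTL3 KO alone had to be higher. The 2 called higher, Traj58 and Trav22, were of the latter kind. These counts therefore describe the segments tested and not the locus. The 44 lower were 27 Trav and 17 Traj segments. The median log2 fold change was -1.62 over the 79 members and 0.08 over all genes tested.

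Most of the difference in J counts lay in the distal section: the whole J class dropped by 42.0 CPM in METTL3 KO, and its distal section dropped by 34.6 CPM. The distal share of Traj counts was 36.7%, 39.4% and 27.5% in METTL3 KO, against 69.4%, 72.8% and 65.8% in WT, so the groups lay far apart. The 95% Wilson intervals ran from 21.7% to 45.7% over the 3 METTL3 KO libraries and from 62.8% to 75.7% over the WT ones; they cover counting error only. In level, the distal section summed to 5.81 ± 2.24 CPM in METTL3 KO and 40.4 ± 3.62 CPM in WT, 6.94-fold lower. The proximal section summed to 7.15 ± 1.40 CPM in METTL3 KO and 8.31 ± 0.61 CPM in WT, and the libraries overlapped. The middle section summed to 3.59 ± 1.11 CPM in METTL3 KO and 9.83 ± 3.95 CPM in WT without overlap. With 3 libraries against 3, an exact permutation test cannot give a two-sided p below 0.1, so these sums are given as descriptions.

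**Figure D3:**
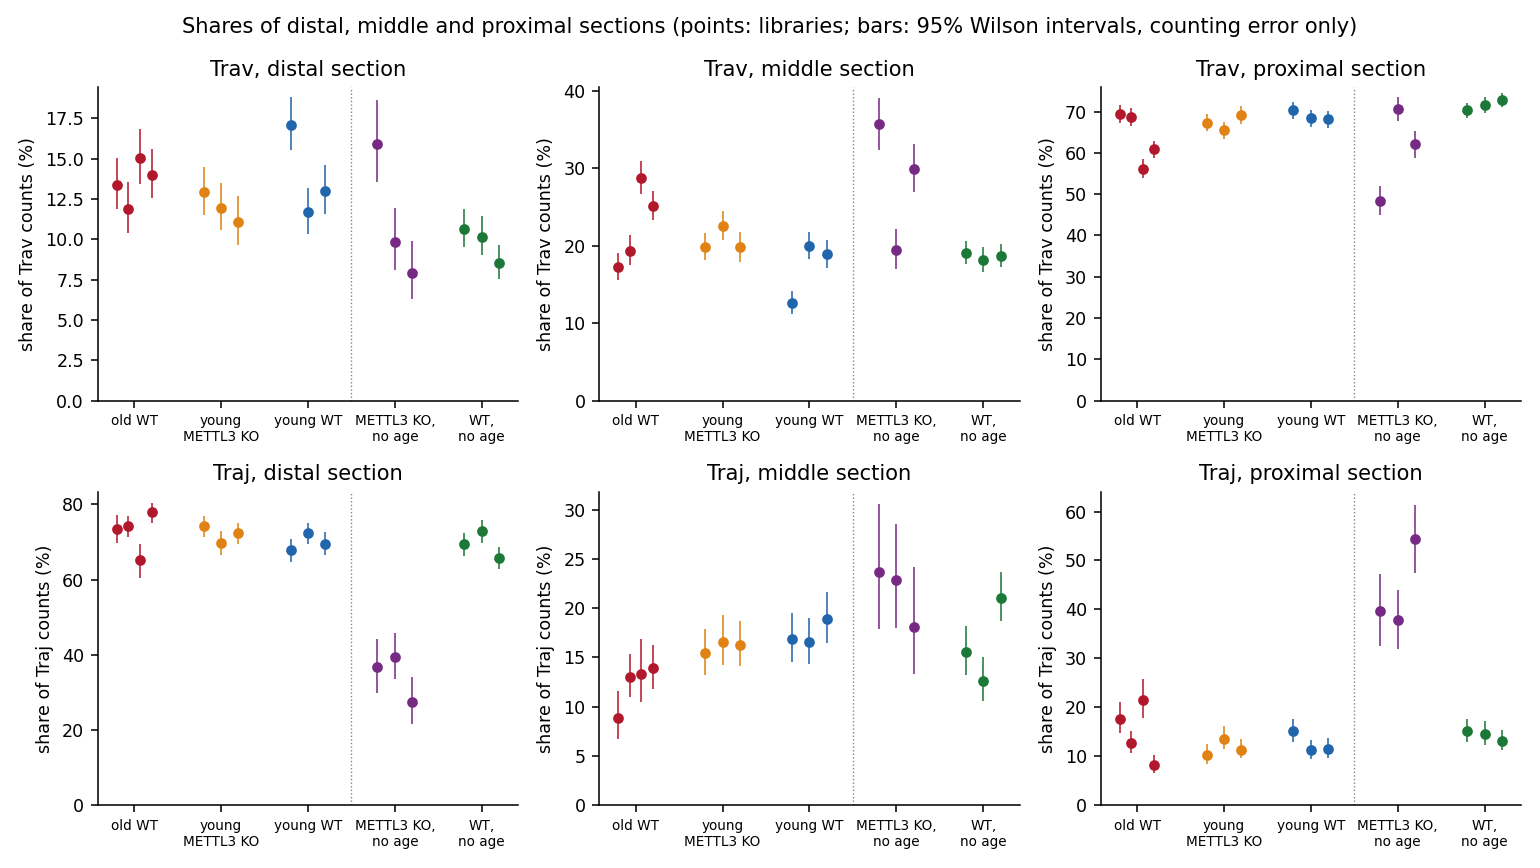
Share of Trav (top) and Traj (bottom) counts in the distal, middle and proximal sections (%, y axis) by group. Points are libraries and bars are 95% Wilson intervals; in METTL3 KO without an age the distal J share was 27.5% to 39.4%, against 65.8% to 72.8% in WT without an age.

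Of the distal J segments, 17 of 20 were tested and 15 fell, where 24% of all genes tested were called lower. Most of these 15 passed the filter through WT alone and had to be lower, so their number is no test of the section. They include Traj14, Traj9 and Traj8, with 0 counts in all METTL3 KO libraries. Traj20, Traj17, Traj15, Traj13, Traj11, Traj7, Traj6 and Traj5 also passed through WT alone, with at most 7 counts in any METTL3 KO library. Traj9, a functional J segment, had 0 counts in all 3 METTL3 KO libraries, against 34, 46 and 37 in WT. Set against 3 counts over the METTL3 KO group, this is at least 30.9-fold lower (adjusted p = 0.000316). No count among 169, 241 and 193 Traj counts allows a share of up to 1.78%, 1.25% and 1.55% in METTL3 KO, while Traj9 held 4.38% ± 1.03 of Traj counts in WT.

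The neighbouring pseudogene Traj8 had 0, 0 and 0 counts in METTL3 KO and 32, 21 and 20 in WT, at least 19.3-fold lower (adjusted p = 0.000783). Traj7 had 2, 1 and 0 counts in METTL3 KO and 32, 39 and 40 in WT, 29.3-fold lower in METTL3 KO (95% counting interval 9.78 to 144; adjusted p = 0.000593). Traj6 had 1, 3 and 0 counts in METTL3 KO against 30, 40 and 52 in WT (log2 fold change -4.47 ± 0.80 SE, adjusted p = 0.000904). All 4 segments lie next to one another, and METTL3 KO had at most 3 counts on any of them in any library.

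The last segments of the cluster fell as well. Traj3 had 5, 10 and 7 counts in METTL3 KO and 66, 51 and 94 in WT (log2 fold change -2.90 ± 0.49 SE, adjusted p = 0.00065). Traj2, the J segment with the highest mean share over the 16 libraries, had 12, 24 and 8 counts in METTL3 KO and 69, 98 and 71 in WT (-2.06 ± 0.48 SE, adjusted p = 0.0037). Traj1, which lies next to Trac, had 8, 10 and 6 counts in METTL3 KO and 72, 54 and 54 in WT (-2.54 ± 0.47 SE, adjusted p = 0.00105). Traj19 (-1.94 ± 1.03 SE, adjusted p = 0.132) and Traj16 were the distal segments tested that were not called. Traj16 had 16, 6 and 19 counts in METTL3 KO and 10, 15 and 11 in WT (0.50 ± 0.60 SE, adjusted p = 0.503), and the groups overlapped.

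Traj58, the fourth J segment from the V side, was the only J segment called higher. It passed the filter through METTL3 KO alone and so could only be higher. It had 32, 46 and 62 counts in METTL3 KO and 9, 6 and 7 in WT (log2 fold change 2.97 ± 0.50 SE, adjusted p = 0.000624), with no overlap. It held 18.9%, 19.1% and 32.1% of Traj counts in METTL3 KO and 0.822% ± 0.216 in WT. The segments upstream of it were not higher. Traj61, a pseudogene and the first of the cluster, had 1, 5 and 9 counts in METTL3 KO against 26, 13 and 32 in WT (-1.90 ± 0.73 SE, adjusted p = 0.0436), and Traj60 fell too (-3.50 ± 0.82 SE, adjusted p = 0.00407). Traj59 missed the threshold (-1.62 ± 0.67 SE, adjusted p = 0.0603). Traj49, named after its values were seen, had 13, 10 and 15 counts in METTL3 KO and 9, 7 and 1 in WT (1.47 ± 0.72 SE, adjusted p = 0.105). Traj49 also passed the filter through METTL3 KO alone. Traj58, Traj16, Traj2 and Traj49 together held 44.3% ± 9.15 of Traj counts in METTL3 KO, whereas the 4 leading segments in WT (Traj2, Traj3, Traj1 and Traj4) held 29.5% ± 3.53.

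**Figure D4:**
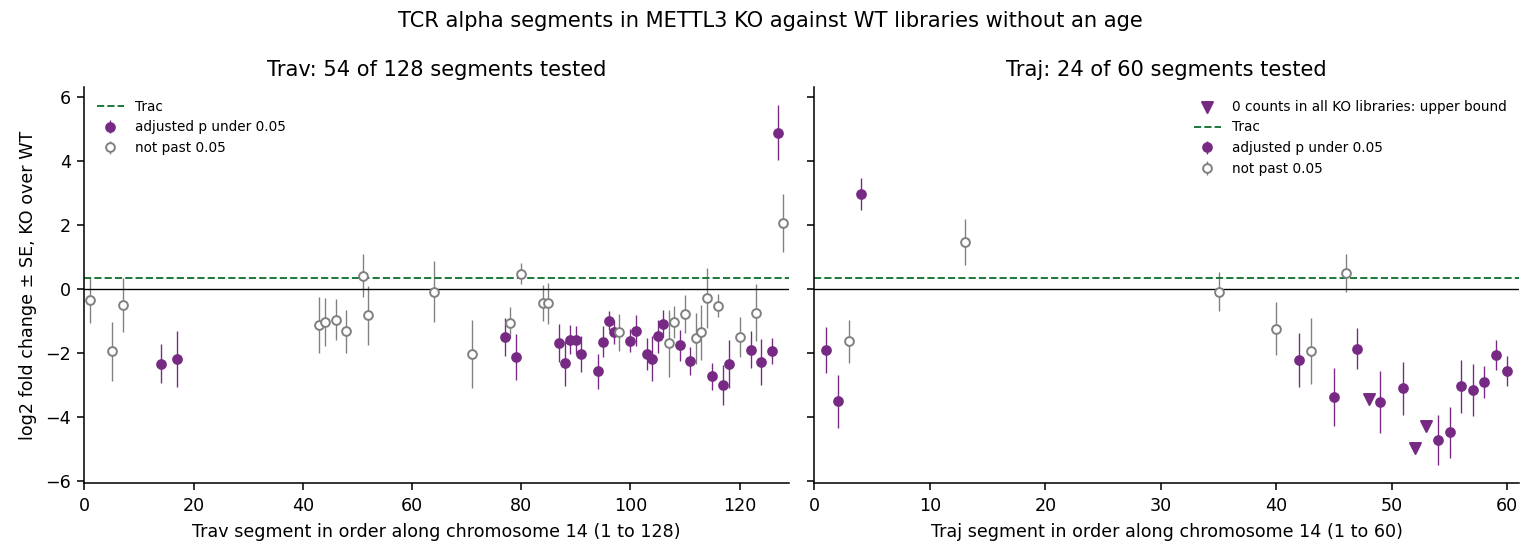
Log2 fold change ± SE (y axis; METTL3 KO over WT, libraries without an age) of the Trav (left) and Traj (right) segments that were tested, in order along chromosome 14 (x axis). Filled points passed an adjusted p of 0.05, triangles are upper bounds for Traj14, Traj9 and Traj8, which had 0 counts in all METTL3 KO libraries, and the dashed line is Trac at 0.34; only Trav22 and Traj58 lie above 0 among filled points.

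V segments fell too, most of those called being proximal. Of the 35 proximal V segments tested, 23 fell and 1 rose, where 24% of all genes tested were called lower and 29.9% higher. In the middle section 2 of 13 fell and in the distal section 2 of 6. These 2 counts are not far from the share over all genes and are no result about their sections. Few of the upstream segments passed the filter on low counts. The proximal section summed to 43.0 ± 13.1 CPM in METTL3 KO and 118 ± 11 CPM in WT, 2.74-fold lower. The distal section summed to 7.81 ± 2.59 CPM in METTL3 KO and 16.1 ± 1.98 CPM in WT, 2.06-fold lower. As a share of Trav counts, the distal section held 15.9%, 9.84% and 7.90% in METTL3 KO and 10.6%, 10.2% and 8.51% in WT, and the groups overlapped. The middle section held 35.7%, 19.5% and 30.0% in METTL3 KO and 19.0%, 18.2% and 18.7% in WT, with the second METTL3 KO library close to WT. The SD of the middle share was 8.22 percentage points in METTL3 KO and 0.433 in WT.

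Among V segments, Trav8-2, annotated as a pseudogene, had 8, 14 and 8 counts in METTL3 KO and 90, 70 and 94 in WT (log2 fold change -2.72 ± 0.43 SE, adjusted p = 0.000468). Trav5-4, a functional segment, had 6, 12 and 14 counts in METTL3 KO and 60, 60 and 72 in WT (-2.24 ± 0.45 SE, adjusted p = 0.00172). Both lie in the proximal section, and their groups were far apart. Of the segments with the highest shares, Trav13-1 (-0.98 ± 0.31 SE, adjusted p = 0.0182), Trav14-1 (-1.34 ± 0.37 SE, adjusted p = 0.00975) and Trav21-dv12 (-1.93 ± 0.40 SE, adjusted p = 0.00213) fell. Trav16 had 31, 69 and 69 counts in METTL3 KO and 118, 90 and 98 in WT, a difference of -0.52 ± 0.35 SE that missed the threshold (adjusted p = 0.235). Trav3-3 missed it as well (-1.03 ± 0.50 SE, adjusted p = 0.105).

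Trav14n-3, in a duplicated part of the cluster, had 61, 48 and 57 counts in METTL3 KO and 60, 45 and 44 in WT (0.49 ± 0.34 SE, adjusted p = 0.238), and led the V shares in METTL3 KO with 6.53% ± 1.29. Trav22 was the only V segment called higher, but it passed the filter through METTL3 KO alone and so could only be higher. It is annotated as a pseudogene at the J end of the cluster, and had 23, 19 and 14 counts in METTL3 KO and 1, 0 and 1 in WT, a ratio of 35.3 (95% counting interval 9.33 to 299; adjusted p = 0.00081). Its neighbour Trav23, the last V segment, had 22, 9 and 13 counts in METTL3 KO and 0, 11 and 2 in WT (2.07 ± 0.92 SE, adjusted p = 0.076). At the far end, Trav1 had 16, 2 and 15 counts in METTL3 KO and 25, 14 and 13 in WT (-0.34 ± 0.70 SE, adjusted p = 0.7). Trav4-1, a pseudogene too low for the filter and named after its values were seen, had 13, 6 and 9 counts in METTL3 KO and 0, 1 and 0 in WT (adjusted p = 0.0152 without the filter, where 32.5% of genes were called).

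Genes that act on the locus moved with these groups. Of 46 genes for recombination, locus access and DP survival, 27 fell and 3 rose in METTL3 KO without an age (median log2 fold change -0.58), in a comparison where 24% of all genes tested were called lower and 29.9% higher. Rag1, the catalytic subunit of the recombinase, stood at 1201, 1071 and 959 CPM in METTL3 KO and 6312, 5000 and 6243 CPM in WT (-2.44 ± 0.19 SE, adjusted p = 4.11e-05). Rag2, its partner, fell as well (-1.25 ± 0.23 SE, adjusted p = 0.00103), as did Lig4, the ligase of end joining (-1.63 ± 0.19 SE, adjusted p = 0.000115). Tcf12, which encodes the E protein HEB (-1.74 ± 0.18 SE, adjusted p = 7.71e-05), the DNA damage kinase Atm (-2.37 ± 0.25 SE, adjusted p = 9.01e-05) and the cohesin subunit Rad21 (-1.35 ± 0.20 SE, adjusted p = 0.000361) fell. Bcl2l1, which encodes the survival factor Bcl-xL, fell by 0.58 on the log2 scale (adjusted p = 0.0146). The 3 that rose were Nhej1 (0.92 ± 0.30 SE, adjusted p = 0.0225), E2f2 (0.47 ± 0.15 SE, adjusted p = 0.0201) and Smarca4 (0.43 ± 0.17 SE, adjusted p = 0.0456).

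Cell type markers moved too. The 10 DP markers summed to 8159 to 9948 CPM in METTL3 KO without an age and 15300 to 17520 CPM in WT, with 5 of 10 lower, Rag1 and Rag2 among them. The 8 B cell markers summed to 737 to 1159 CPM in METTL3 KO and 533 to 632 CPM in WT, with 7 of 8 higher. These 2 shares stand beside 24% of all genes called lower and 29.9% called higher. The 6 double-negative thymocyte markers summed to 152 to 218 CPM in METTL3 KO and 260 to 297 CPM in WT, yet Kit (log2 fold change 1.83) and Dtx1 (1.03) were called higher and Notch1 (-1.38) lower. The 8 myeloid markers summed to 136 to 173 CPM in METTL3 KO and 98.2 to 118 CPM in WT, with Cd74 and Cd68 called higher. The markers of NK, NKT and gamma-delta T cells, 9 of 11 of them in the files, summed to 112 to 142 CPM in METTL3 KO and 79.5 to 106 CPM in WT, with Zbtb16 (2.97) and Fcer1g (1.81) called higher. Sums of the 10 markers of mature single-positive thymocytes overlapped, at 831 to 859 CPM in METTL3 KO and 802 to 908 CPM in WT; among those called, H2-K1 and Itgb7 were higher and Cd69 was lower. Erythroid markers stood at 0.33 to 2.34 CPM in METTL3 KO and 1.89 to 15.7 CPM in WT, with Hbb-bs called lower. The part of these markers in the segment results was not tested.

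No member passed the test in young METTL3 KO against young WT, where 91 of 189 members were tested and 0% of all genes were called. DESeq2 called none either. By edgeR, 88 of all 14228 genes tested had an unadjusted p under 0.05, and 2 of them were members. These were Trav9-2, with 50, 37 and 37 counts in young METTL3 KO and 55, 66 and 55 in young WT (log2 fold change -0.51 ± 0.21 SE, unadjusted p = 0.0287, adjusted p = 1), and Trav4-2, with 17, 4 and 8 counts against 5, 4 and 2 (1.37 ± 0.57 SE, unadjusted p = 0.0329, adjusted p = 1). Trac was -0.05 ± 0.15 SE on the log2 scale. Traj counts per 1000 Trac counts were 277 ± 43.8 in young METTL3 KO and 271 ± 20.7 in young WT, and Trav counts were 558 ± 32.1 against 575 ± 25.6. The distal J share was 74.3%, 69.8% and 72.3% in young METTL3 KO and 67.9%, 72.2% and 69.6% in young WT, and all 6 shares of sections overlapped. Traj58 had 3, 4 and 4 counts in young METTL3 KO and 5, 7 and 6 in young WT. None of the 46 locus genes passed the test.

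Whether the KO difference was unequal in the sets with and without an age was tested as an interaction, with 92 members tested. It called 39 members, 36 of them lower in the set without an age and 3 higher (Traj58, Trav22 and Trac), against 36.9% of all genes tested. The total called was thus not far from the share over all genes. Of all 16557 genes tested, 2929 were called lower and 3175 higher. All 20 distal J segments were tested here, and 17 were called lower. Traj58 and Trav22 passed the filter here through METTL3 KO without an age alone. For Trac the interaction was 0.56 ± 0.13 SE on the log2 scale (adjusted p = 0.00443) and for Traj3 it was -2.75 ± 0.46 SE (adjusted p = 0.00044).

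In old WT against young WT, J counts beside Trac varied widely among the old WT libraries. No member passed the test among 91 tested, where 0.253% of all genes were called, and DESeq2 called none. By edgeR, 7 of the 91 members had an unadjusted p under 0.05, beside 1716 of all 14228 genes tested. The fraction was no larger among the members than among all genes. Traj counts per 1000 Trac counts were 116, 313, 96.1 and 255 in old WT and 257, 295 and 261 in young WT. Old WT replicates 1 and 3 lay far below and replicate 2 lay above young WT, so the groups overlapped. The difference of the means was -75.8, and with 1 library left out it ran from -115.2 without old WT replicate 2 to -42.8 without old WT replicate 3, with -49.6 without old WT replicate 1. Trac itself was 446, 290, 478 and 363 CPM in old WT and 336, 333 and 345 CPM in young WT (log2 fold change 0.22 ± 0.14 SE, adjusted p = 0.543).

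Rag1 was lowest in the same replicates 1 and 3 of old WT, with 3482, 6395, 3728 and 6590 CPM, against 7036, 5462 and 5526 CPM in young WT. Summed DP markers were 12450, 15240, 12110 and 16420 CPM in old WT, against 14330 to 16160 CPM in young WT. Mature single-positive markers were 768 to 798 CPM in 3 old WT libraries, 1695 CPM in replicate 3 and 648 to 689 CPM in young WT. Summed myeloid markers were 87.1 to 123 CPM in those 3 old WT libraries, 536 CPM in replicate 3 and 89.3 to 101 CPM in young WT. The part of these markers in the J counts was not tested.

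The distal J share was 73.5%, 74.3%, 65.1% and 77.9% in old WT and 67.9%, 72.2% and 69.6% in young WT, with overlap. The middle section did not overlap, at 8.84%, 13.0%, 13.3% and 13.9% in old WT and 16.9%, 16.5% and 18.9% in young WT. Its difference lay between -5.72 and -4.03 percentage points with any library left out; with 4 libraries against 3 the smallest two-sided exact permutation p is 0.0571. Traj1 took 16.5%, 9.81%, 18.7% and 10.3% of Traj counts in old WT and 6.42%, 9.08% and 7.38% in young WT, again highest in old WT replicates 1 and 3. Its own count did not separate the groups, at 88, 90, 80 and 99 in old WT and 57, 89 and 66 in young WT (0.34 ± 0.19 SE, adjusted p = 0.483). It was the 1 of 31 tested J segments with a log2 fold change above 0; their median was -0.57, against 0.01 over all genes tested.

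Of the J segments with the smallest p, Traj25 had 2, 6, 1 and 7 counts in old WT and 7, 15 and 11 in young WT (-1.43 ± 0.51 SE, unadjusted p = 0.0156, adjusted p = 0.332). Traj23 had 2, 5, 0 and 10 counts in old WT and 16, 13 and 11 in young WT (-1.62 ± 0.60 SE, unadjusted p = 0.0187, adjusted p = 0.342). Traj30 had 3, 8, 1 and 2 counts in old WT and 9, 14 and 11 in young WT (-1.66 ± 0.70 SE, unadjusted p = 0.0339, adjusted p = 0.375). All lie in the middle section.

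In the V class, the proximal section summed to 122, 110, 102 and 120 CPM in old WT, below the 138, 135 and 128 CPM of young WT. As a share of Trav counts it overlapped, at 56.2% to 69.4% in old WT and 68.1% to 70.3% in young WT. Per 1000 Trac counts it overlapped too, at 213 to 380 against 371 to 412. The distal share overlapped at 11.9% to 15.03% against 11.7% to 17.1%. Trav13-4-dv7 had 17, 26, 12 and 9 counts in old WT and 37, 28 and 40 in young WT (-1.12 ± 0.33 SE, unadjusted p = 0.00482, adjusted p = 0.251). Trav7-4 had 34, 41, 31 and 32 counts in old WT and 53, 51 and 43 in young WT (-0.49 ± 0.19 SE, unadjusted p = 0.0223, adjusted p = 0.358). Trav4-2 had 12, 13, 8 and 16 counts in old WT and 5, 4 and 2 in young WT (1.71 ± 0.53 SE, unadjusted p = 0.00679, adjusted p = 0.28). None of the 46 locus genes passed the test with age.

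Segments used in the invariant chains of innate-like T cells were counted one by one. Trav11, the V segment of invariant NKT cells, had at most 1 count in any of the 16 libraries, but 0% of its 50-base words were unique among V transcripts, so its level cannot be read from these counts. Its partner Traj18 had 3, 11, 6 and 19 counts in old WT, 17, 10 and 18 in young METTL3 KO, 15, 19 and 16 in young WT, 0, 3 and 0 in METTL3 KO without an age and 5, 15 and 7 in WT without an age. Trav1 and Traj33 form the chain of mucosal-associated invariant T cells. Trav1 had 19 to 42 counts in old WT, 21 to 28 in young METTL3 KO and 24 to 40 in young WT. Traj33 had 0 to 3 counts in old WT, 4 to 9 in young METTL3 KO and 3 to 10 in young WT. A count of segments does not show which V was joined to which J.

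Single V segments in the duplicated part of the cluster were present or absent by library rather than by group, a pattern noted after the values were seen. In young WT replicate 1, 25 neighbouring segments (Trav4d-4 to Trav12n-2, chr14:52990866-53227400) had 3 counts in all and none above 1. The same segments held 77 to 216 counts in the other libraries with an age, and 63 to 108 in METTL3 KO and 145 to 179 in WT without an age. Trav14d-3-dv8 shows the contrast: it had 12, 27, 45 and 40 counts in old WT, 37, 36 and 37 in young METTL3 KO, and 0, 30 and 31 in young WT. The segments on either side, Trav9d-4 and Trav9n-3, had 12 counts each in this library. Trav9d-4 had 0 to 3 counts in the other libraries with an age, and Trav9n-3 had 0 to 2 apart from 18 in old WT replicate 1. The library's Trav total of 2024 was the highest of young WT.

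**Figure D5:**
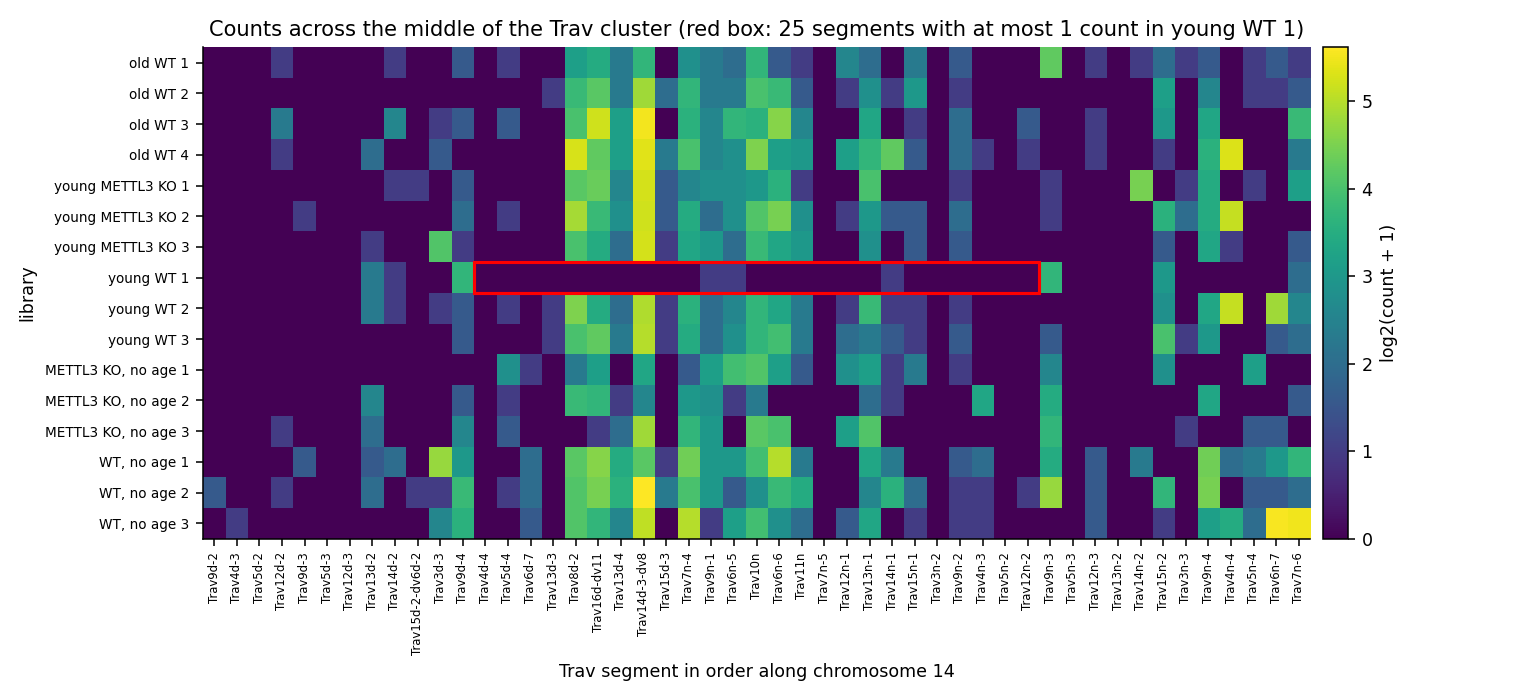
Counts, as log2(count + 1) in colour, for Trav segments in order along chromosome 14 (x axis) in each of the 16 libraries (y axis). The red box marks young WT replicate 1, where 25 neighbouring segments had at most 1 count each, against 77 to 216 counts in sum in the other libraries with an age.

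Other segments stood in few libraries. Trav4n-4 had 39, 34 and 34 counts in old WT replicate 4, young METTL3 KO replicate 2 and young WT replicate 2, and at most 1 in the other libraries with an age. Trav6d-6 had 34 counts and Trav14n-2 had 21 in young METTL3 KO replicate 1, with at most 1 in any other library with an age. Trav6n-7 had 27 counts in young WT replicate 2 and at most 2 elsewhere in that set. These names belong to the D and N copies, 73 of the 128 V segments, whose sequences are close. A median of 0.329% of their 50-base words was unique among V transcripts, against 64.6% for the other 55, where Trav11, Trav7-2 and Trav6-6 stood at 0%, and 12 of the 73 had 0 counts in all 16 libraries. Counts of a single copy are therefore uncertain, since reads could be split or dropped between copies.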

How the data were processed

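The deposited files hold raw read counts per gene, 1 file per library, as the authors deposited them. HISAT2 2.0.5 aligned the reads to mm10, per the submitters' processing notes. Which program counted them, with what annotation and strand rule, is not given in the sources used here, and reads that fit several segment copies may be missing. Per the labels' protocols, total RNA was used and libraries were made at BGI standards. Members were matched by Ensembl gene ID with the version removed, and positions, biotypes and sequences came from GENCODE M21. Members and lists were chosen with earlier results of these data known. Lines that name no gene stayed out of library sizes. Entries outside genes were 47.5% to 51.2% with an age and 7.23% to 15.03% without, and entries not aligned were 0.577% to 0.826% with an age and 50.5% to 52.2% without. The sets were therefore compared only through differences within each.

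Shares are counts of a segment over the counts of its class, and CPM are counts scaled to library size with TMM factors. edgeR 4.0.16 in R 4.3.3 tested all genes (filterByExpr, TMM, robust quasi-likelihood, two-sided) with Benjamini-Hochberg adjustment over all genes tested and a threshold of 0.05. One fit held the 10 libraries with an age and another the 6 without. The SE is the log2 fold change over the root of F. Alternatives were DESeq2 1.42.0, its size factors, library size alone, no filter, a filter of 1 CPM in 3 libraries, the groups compared alone, a replicate block, each library left out, and for shares a split of the order into 2 equal parts, functional segments, counts per kilobase and a minimum of 10 counts. The procedure was tested on simulated data, with changes set in genes of at least 1 CPM. It recovered 62% to 72% of 2-fold changes in the comparisons with an age and 56% without. For 1.5-fold changes it recovered 24% to 38% and 8%. Many J segments lie below 1 CPM, so small changes in them could be missed. Named genes were Trac, the invariant segments, the first and last of each class, the 6 highest shares of each class, up to 6 called members in each direction and the 3 smallest p per class and comparison. Tables and figures were made with matplotlib 3.10.9, pandas 2.3.3 and scipy 1.17.1 under Python 3.11.15.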

Additional observations from a re-analysis of the deposited data

Results flagged for a closer look

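In 4 of 46 sets of old WT values examined, 1 library lay far from the other 3; chance gives about 1 in 20 such sets. Old WT replicate 3 was that library for 3 of them. Its Traj33 share was 0%, against 0.313% to 0.376% in the other old WT libraries, and the gap was 0.834 of the range. These shares rest on 2, 3, 0 and 3 counts. In replicate 3, no count among 427 Traj counts allows a share of up to 0.703%, which covers the other libraries. The Trav3-3 share of replicate 3 was 5.29%, against 3.08% to 3.34% (gap 0.878). Its Traj37 share was 3.04%, against 0.522% to 0.564% (gap 0.984). For Trav11 the gap was 1.0 and rests on 1 count in replicate 4, in a segment with no 50-base word unique among V transcripts.

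The KO difference was unequal between the set without an age and the young set, by an interaction on the log2 scale (edgeR, adjusted over all genes tested), for the following members. It was higher without an age for Trac (0.56), Traj58 (3.83) and Trav22 (5.95). It was lower for Traj3 (-2.75), Traj6 (-4.42), Traj7 (-4.29) and Trav8-2 (-2.40). It was also lower for Traj9 (-8.01) and Traj8 (-6.69), where the fitted size depends on the prior count, since METTL3 KO libraries without an age had 0 counts. Genotype by set cannot be told apart from other ways in which the sets differ.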

How the results depend on the processing

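No called result changed direction under the alternatives run; some share differences whose groups overlapped changed sign. The count of members called in METTL3 KO against WT without an age was 46, and 37 to 63 under the other settings with all libraries: 37 with a replicate block, 38 with 1 CPM in 3 libraries, 40 with library size alone (chosen after seeing the data), 44 with DESeq2 size factors, 51 with DESeq2 and 63 without the filter, and 33 to 59 with a library left out. Old WT and young METTL3 KO comparisons stayed at 0 members in every setting run. Trac without an age passed the threshold with library size alone (0.4387) and with 1 CPM in 3 libraries (0.3841), and was 0.158 without the filter; with a library left out it lay between 0.21 and 0.34. Splitting the V order into 2 equal parts in place of 3 moved the distal share difference to 3.26 percentage points for old WT (-0.35 with 3 parts) and to 5.77 for METTL3 KO without an age (1.45 with 3 parts); the wider parts place other segments on the distal side. The distal J share difference without an age was -34.8 percentage points, -29.0 to -37.3 under the other definitions, and -37.2 to -31.2 with a library left out. A minimum of 10 counts in every library could not be applied to the shares without an age. Same-numbered libraries did not deviate together (correlations -0.229 to 0.0869 with an age, -0.125 to 0.00886 without). The counts thus gave no sign of pairing by number, but with so few libraries they cannot show that samples were unpaired. With the replicate block the members called were 37 without an age, as above, and 0 in both other comparisons. Low counts limit single segments, above all in METTL3 KO without an age.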
